A study of Mus musculus with 15 samples.

Results

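The genes described are the voltage-gated sodium and calcium channel genes of mouse cortex, chosen by symbol alone, from the genes of the RNA-seq table whose symbol starts with Scn and a digit or with Cacn. They are 38 of the 23235 genes in the table, 19 that encode pore-forming subunits and 19 that encode auxiliary subunits. Of these, 28 had a mean of at least 1 FPKM over the 4 groups and entered the comparisons, 12 pore-forming and 16 auxiliary. FPKM counts fragments scaled by transcript length and by the mapped fragments of the library, so levels of different genes are compared per length throughout.

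The RNA-seq groups were cortex of adult male WT mice of the C57BL/6J strain and of *Snord116del* (+/-) mice of the strain B6(Cg)-Snord116tm1.1Uta/J, which carry a deletion of the *Snord116* cluster on the paternal chromosome; WT mice were their littermates. Cortex was taken at zeitgeber time (Zt) +6, in the light, from 3 WT and 2 *Snord116del* mice, and at Zt +16, in the dark, from 2 WT and 2 *Snord116del* mice. In the imprinted locus only the paternal copy is active, and it yields small nucleolar RNAs and a long non-coding host RNA called *116HG*. ChIRP-seq, in which biotinylated antisense oligos pull down an RNA with the chromatin it lies on, was done on adult brain with oligos against *116HG* (WT, 2 replicates, and *Snord116del*, 1 library) and with non-specific control oligos (NSC; WT and *Snord116del*, 1 library each).

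The table holds 1 FPKM value per group and gene, so no spread between mice and no standard error can be computed from it. The authors' own q-values per gene in the same table were not used, no test of a single gene was made here, and every difference below compares pooled groups without a replicate check. A gene was called higher or lower where its FPKM + 1 differed at least 1.5-fold between groups and reached 1 FPKM in the higher of them. All changes are log2 ratios of FPKM + 1, which understate the change of genes with low FPKM. *Snord116* was listed at 0 FPKM in all 4 groups and so could not check the labels, while *Ipw*, which lies in the same imprinted locus and encodes no protein, had 21.6 FPKM in WT and 3.40 FPKM in *Snord116del* at Zt +6 and 3.17 and 1.82 FPKM at Zt +16. Over the 10297 genes tested the median log2 change between genotypes was itself above 0, at 0.57 at Zt +6 and 0.35 at Zt +16, so the changes of the channel genes are read against these shifts. The sample labels give 1 table name for 1 of the 3 WT mice and both *Snord116del* mice at Zt +6, and another table name, that of the table analysed here, for the other mice. What the different name stands for is not stated, and at Zt +6 it cannot be fully told apart from genotype.

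Voltage-gated sodium and calcium channels open when the membrane depolarises. A large α subunit forms the pore and carries the voltage sensors, and smaller auxiliary subunits (β for sodium channels, α2δ, β and γ for calcium channels) set how many channels reach the membrane and how they gate. In cortical neurons sodium channels start and carry the action potential, calcium channels couple it to transmitter release, dendritic signals and burst firing, and most γ subunits present in brain serve mainly as auxiliary proteins of AMPA-type glutamate receptors.

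Some of the sequences behind the values are given first. In the ChIRP-seq data, the WT replicate 1 peak of *Cacna1b* that lay within 10 kb of a replicate 2 peak is shown as an exonic peak, and the stretch of *Cacna2d3* where the peaks of both WT replicates overlapped is shown because direct overlap was rare. Both are on the plus strand of mm9. The *Cacna1b* peak (chr2:24613795-24613942) is printed with the bases of the annotated coding exon in capitals. In the *Cacna2d3* stretch (chr14:30013712-30013828, intronic) the capitals are the bases that both replicates called.
Cacna1b replicate 1: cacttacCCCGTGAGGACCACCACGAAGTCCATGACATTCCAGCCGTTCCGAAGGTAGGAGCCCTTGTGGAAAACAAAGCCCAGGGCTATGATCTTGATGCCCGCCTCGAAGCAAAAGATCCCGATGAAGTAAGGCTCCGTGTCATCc
Cacna2d3 both replicates: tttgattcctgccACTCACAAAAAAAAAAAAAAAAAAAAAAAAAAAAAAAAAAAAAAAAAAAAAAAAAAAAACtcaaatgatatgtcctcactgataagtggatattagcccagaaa
The *Cacna1b* peak lay almost wholly on a coding exon (140 of 148 bases), whereas the stretch of *Cacna2d3* called in both replicates was, but for its edges, a run of A.

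Promoter sequences from RefSeq (GRCm38.p6, 250 bases before to 50 bases after the start) were at hand for 30 of the 38 members. They were searched on both strands for an E-box (CACGTG), a cAMP response element (TGACGTCA) and a D-box (TTATGTAA), which do not contain one another and are well known elements of time-of-day and activity-driven transcription. The E-box was in 7.15% of all 32851 promoters, the cAMP element in 1.79% and the D-box in 0.938%. Among the members these letters were found once, a D-box in the *Scn1a* promoter, which is printed up to 30 bases after the start (GRCm38.p6 chr2:66440808-66441087, minus strand, motif in capitals). It is shown because it was the only match among the members, and the motif lies across the annotated start. The match is a description only.
Scn1a promoter: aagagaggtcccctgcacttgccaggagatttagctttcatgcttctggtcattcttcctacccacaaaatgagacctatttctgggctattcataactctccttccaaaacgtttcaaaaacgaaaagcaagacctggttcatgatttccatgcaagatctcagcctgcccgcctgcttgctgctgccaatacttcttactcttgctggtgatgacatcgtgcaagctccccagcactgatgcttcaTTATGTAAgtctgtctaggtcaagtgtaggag

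The 4 tested pore-forming sodium channel genes were all higher in *Snord116del* than in WT at Zt +6 and stayed within the 1.5-fold limits at Zt +16. *Scn8a*, the main channel of the axon initial segment and the nodes of Ranvier, had 10.2 FPKM in WT and 33.7 FPKM in *Snord116del* at Zt +6, and 5.07 and 6.95 FPKM at Zt +16. *Scn2a1* (Scn2a), which serves the initial segment and unmyelinated axons of excitatory neurons, had 9.52 FPKM in WT and 32.0 FPKM in *Snord116del* at Zt +6, and 4.38 and 6.03 FPKM at Zt +16. These are the most abundant sodium channel α transcripts per length, and they moved nearly in parallel: the ratio of *Scn8a* to *Scn2a1* was 1.07, 1.05, 1.16 and 1.15 in WT and *Snord116del* at Zt +6 and in WT and *Snord116del* at Zt +16. *Scn1a*, the main sodium channel of fast-spiking inhibitory neurons, had 2.21 FPKM in WT and 10.3 FPKM in *Snord116del* at Zt +6, and 0.252 and 0.385 FPKM at Zt +16, so that it was above 2 FPKM only at Zt +6. *Scn3a*, which is most abundant in the embryonic brain, had 1.06 FPKM in WT and 3.31 FPKM in *Snord116del* at Zt +6, and 0.984 and 1.34 FPKM at Zt +16. The log2 changes between genotypes at Zt +6 were 1.63 for *Scn8a*, 1.65 for *Scn2a1*, 1.81 for *Scn1a* and 1.07 for *Scn3a*, against 0.15 to 0.39 at Zt +16. The 5 other sodium channel α genes described (*Scn4a* of muscle, *Scn9a*, *Scn10a* and *Scn11a* of sensory neurons, and the sodium sensor *Scn7a*) had means under the 1 FPKM minimum, and no group value of these or of the other members left out exceeded 0.521 FPKM.

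The 3 sodium channel β subunit genes described were called higher in *Snord116del* at Zt +6 and stayed within the limits at Zt +16. *Scn2b*, which is linked to the α subunit by a disulfide bond, had 5.58 FPKM in WT and 11.9 FPKM in *Snord116del* at Zt +6, and 3.88 and 4.92 FPKM at Zt +16. *Scn3b* had 5.199 and 8.74 FPKM at Zt +6 and 3.41 and 5.17 FPKM at Zt +16 (WT before *Snord116del*), and *Scn4b*, which is tied to resurgent sodium current, had 1.53 and 5.04 FPKM at Zt +6 and 0.912 and 1.53 FPKM at Zt +16 in the same order. The log2 changes of these 3 were 0.97, 0.65 and 1.26 at Zt +6 and 0.28, 0.48 and 0.40 at Zt +16. Their summed FPKM was 0.521 times that of the 9 α genes described in WT and 0.320 times in *Snord116del* at Zt +6, and 0.726 and 0.752 times at Zt +16. The median transcript was 4562 bases for these β genes and 9204.5 for the tested α genes. The part of length in these ratios was not tested.

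**Figure D1:**
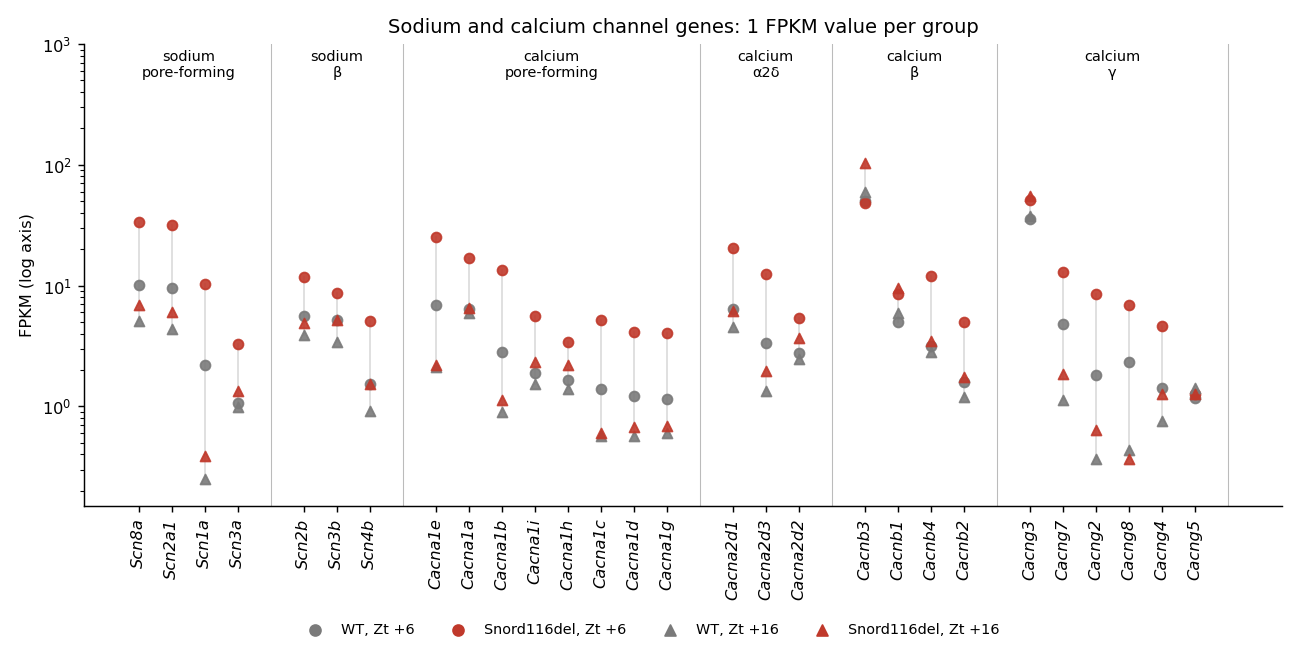
FPKM (log axis) of the 28 members with a mean of at least 1 FPKM, by subunit class and, within a class, from the highest mean to the lowest. Circles are Zt +6, triangles Zt +16, grey WT and red Snord116del, each the deposited value of 1 group, without an error bar because none can be computed. The red circle is the highest of the 4 points in 24 of the 28 genes, and in Cacnb3 it is the lowest.

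Among the calcium channel α genes the level was highest in *Snord116del* at Zt +6 in every one of the 8 tested. The presynaptic P/Q-, N- and R-type channels come first. *Cacna1e* (R type) had 6.84 FPKM in WT and 25.3 FPKM in *Snord116del* at Zt +6, and 2.13 and 2.21 FPKM at Zt +16. *Cacna1a* (P/Q type), the main channel of fast transmitter release, had 6.41 FPKM in WT and 16.9 FPKM in *Snord116del* at Zt +6, and 5.98 and 6.50 FPKM at Zt +16. *Cacna1b* (N type) had 2.84 FPKM in WT and 13.6 FPKM in *Snord116del* at Zt +6, and 0.901 and 1.12 FPKM at Zt +16, and its log2 change of 1.93 at Zt +6, a 4.78-fold ratio of FPKM, was the highest of all members. The order of these 3 genes differed between the times: *Cacna1e* led *Cacna1a* in both genotypes at Zt +6, and *Cacna1a* had 2.81 and 2.94 times the FPKM of *Cacna1e* in WT and *Snord116del* at Zt +16.

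The L-type genes *Cacna1c* and *Cacna1d*, which link dendritic calcium entry to transcription, were lower in level and close to each other. *Cacna1c* had 1.401 FPKM in WT and 5.18 FPKM in *Snord116del* at Zt +6, and 0.565 and 0.607 FPKM at Zt +16. *Cacna1d* had 1.22 FPKM in WT and 4.13 FPKM in *Snord116del* at Zt +6, and 0.572 and 0.669 FPKM at Zt +16. Both were called higher at Zt +6 (log2 1.36 and 1.21), and both were below 1 FPKM in either genotype at Zt +16. The T-type genes, whose channels open at low voltage and serve burst firing, gave 1.88 and 5.55 FPKM at Zt +6 (WT and *Snord116del*) and 1.52 and 2.33 FPKM at Zt +16 for *Cacna1i*. *Cacna1h* gave 1.66 and 3.43 FPKM at Zt +6 and 1.38 and 2.19 FPKM at Zt +16, and *Cacna1g* 1.16 and 4.05 FPKM at Zt +6 and 0.597 and 0.692 FPKM at Zt +16, in the same order. All 3 were called higher at Zt +6, with *Cacna1h* the least changed pore-forming member (0.74), and at Zt +16 *Cacna1i* and *Cacna1h* had the largest changes of the calcium α genes, 0.40 and 0.42, against 0.08 for *Cacna1g*. *Cacna1s* of skeletal muscle and *Cacna1f* of retina were under the minimum.

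The α2δ genes, whose extracellular products raise channel number at the membrane and, for *Cacna2d1* and *Cacna2d2*, bind gabapentin, were called higher at Zt +6. *Cacna2d1* had 6.45 FPKM in WT and 20.3 FPKM in *Snord116del* at Zt +6, and 4.52 and 6.13 FPKM at Zt +16. *Cacna2d3* had 3.37 FPKM in WT and 12.4 FPKM in *Snord116del* at Zt +6, and 1.35 and 1.95 FPKM at Zt +16. *Cacna2d2* had 2.79 FPKM in WT and 5.41 FPKM in *Snord116del* at Zt +6, and 2.45 and 3.68 FPKM at Zt +16. Their log2 changes were 1.52, 1.62 and 0.76 at Zt +6 and 0.37, 0.33 and 0.44 at Zt +16, where none was called. *Cacna2d4*, a retinal form, was under the minimum.

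The cytosolic β subunits, which chaperone the α subunit to the membrane, differed among themselves. *Cacnb3*, the most abundant of them, had 49.96 FPKM in WT and 48.1 FPKM in *Snord116del* at Zt +6, and 59.8 and 104 FPKM at Zt +16. It did not differ by the fold rule at Zt +6 (log2 -0.05) and was called higher at Zt +16 (0.79). *Cacnb1* had 5.03 FPKM in WT and 8.49 FPKM in *Snord116del* at Zt +6, and 5.96 and 9.47 FPKM at Zt +16 and was called at both times (0.65 and 0.59), at Zt +16 barely past the limit. *Cacnb4* had 3.14 FPKM in WT and 12.0 FPKM in *Snord116del* at Zt +6, and 2.83 and 3.45 FPKM at Zt +16, and *Cacnb2* had 1.59 and 5.04 FPKM at Zt +6 and 1.19 and 1.77 FPKM at Zt +16 in the same order. These were called at Zt +6 only (1.65 and 1.22), with 0.22 and 0.34 at Zt +16. The summed FPKM of the β genes was 2.54 times that of the calcium α genes in WT and 0.941 times in *Snord116del* at Zt +6, and 5.06 and 7.21 times at Zt +16. Without *Cacnb3* these ratios were 0.415, 0.326, 0.724 and 0.890. The median transcript was 3670.5 bases for the β genes and 8771 for the tested calcium α genes. How far length enters these ratios was not tested.

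The γ genes measured here were AMPA receptor regulatory proteins except *Cacng1*, a muscle subunit, and *Cacng6*, both under the minimum. *Cacng3* had 35.4 FPKM in WT and 51.0 FPKM in *Snord116del* at Zt +6, and 38.0 and 55.2 FPKM at Zt +16, and its changes of 0.51 and 0.53 stayed inside the limits at both times. *Cacng7* had 4.81 FPKM in WT and 13.0 FPKM in *Snord116del* at Zt +6, and 1.13 and 1.85 FPKM at Zt +16. *Cacng2* (stargazin) had 1.84 FPKM in WT and 8.56 FPKM in *Snord116del* at Zt +6, and 0.37 and 0.634 FPKM at Zt +16. *Cacng8*, abundant in hippocampus and forebrain, had 2.32 FPKM in WT and 6.88 FPKM in *Snord116del* at Zt +6, and 0.431 and 0.369 FPKM at Zt +16, with the lower value at Zt +16 in *Snord116del*. *Cacng4* had 1.42 and 4.66 FPKM at Zt +6 and 0.756 and 1.26 FPKM at Zt +16, and *Cacng5* 1.17 and 1.27 FPKM at Zt +6 and 1.41 and 1.28 FPKM at Zt +16, both with WT first. *Cacng7*, *Cacng2*, *Cacng8* and *Cacng4* were called higher at Zt +6 (1.27, 1.75, 1.25 and 1.22), while *Cacng5* was flat across all 4 groups (0.07 and -0.08).

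In all, 25 of the 28 members were called higher and 0 lower in *Snord116del* at Zt +6, where 49.3% of all tested genes were called higher and 7.62% lower. At Zt +16, 2 members were called higher (*Cacnb3* and *Cacnb1*) and none lower, against 19.0% and 0.204% of all tested genes. Groups scaled to the same median FPKM gave 15 higher and 1 lower at Zt +6, and either scaling (to the same median or the same total) left none called at Zt +16. The shares of all tested genes called after scaling were not computed. With the same median FPKM, the median log2 change over all tested genes was -0.06 at Zt +6 and 0.01 at Zt +16. With the same total it was -0.11 at Zt +16. The value in *Snord116del* at Zt +6 was the highest of the 4 groups in 12 of 12 pore-forming and 12 of 16 auxiliary genes, and in 57.7% of all tested genes. Because these are bulk samples, more cells of a type and more RNA per cell cannot be told apart.

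The comparison of pore-forming with auxiliary subunits is the contrast within the list. At Zt +6 the median log2 change between genotypes was 1.32 over the 12 pore-forming genes (range 0.74 to 1.93, all called higher) and 1.22 over the 16 auxiliary genes (range -0.05 to 1.75, 13 called higher). The 3 auxiliary genes that stayed inside the limits were *Cacnb3* and *Cacng3*, which had the highest FPKM of the auxiliary genes described, and *Cacng5*. At Zt +16 the order was the other way round, with medians of 0.15 for the pore-forming genes (range 0.04 to 0.42) and 0.37 for the auxiliary genes (range -0.08 to 0.79), and both medians fell below 0 with the groups scaled to the same total (-0.15 and -0.052), the pore-forming one also with the same median (-0.045). The ranges of both classes overlapped at each time, and genes of a class are not replicates of one another, so no test was made.

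**Figure D2:**
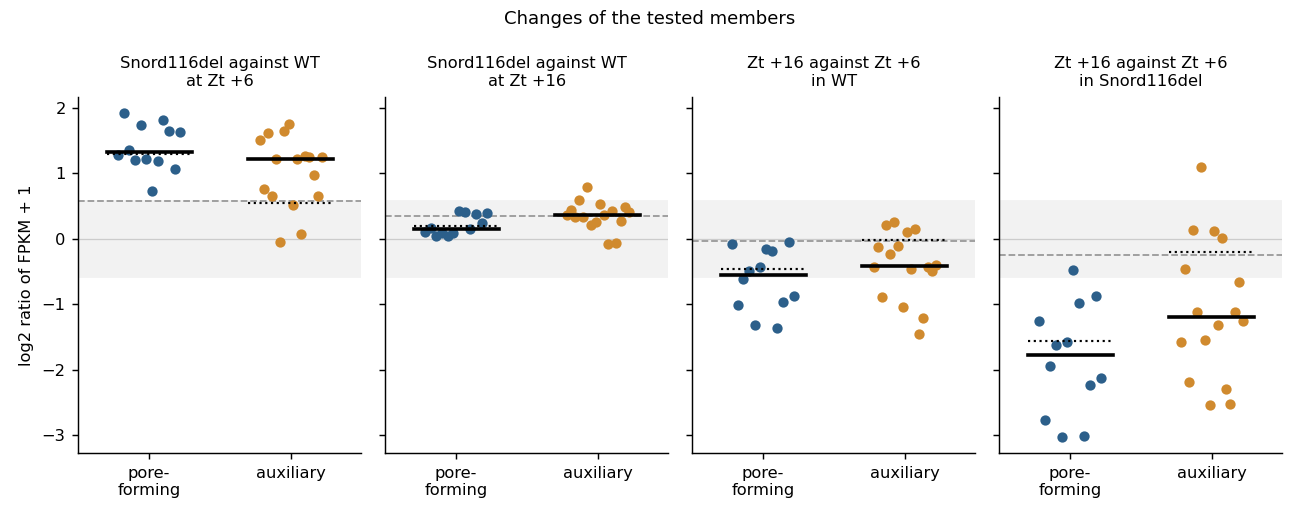
Log2 ratio of FPKM + 1 for the 12 pore-forming (blue) and 16 auxiliary (orange) members in the 4 comparisons. Thick lines are class medians, dotted lines medians of all tested genes with transcripts in the same length range, the dashed line the median of all tested genes, and the grey band the 1.5-fold limits. The length range of the auxiliary genes takes in most tested genes. In the first panel all blue points lie above the band, and in the second all lie inside it, where the class median of 0.15 turned negative when the groups were scaled to the same median or total.

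Transcript length has to stand beside this contrast. The longest annotated transcripts of the tested pore-forming genes ran from 7577 to 12696 bases (median 9004) and those of the auxiliary genes from 663 to 8225 bases (median 3825). Over the 10165 tested genes with a transcript length, the log2 change at Zt +6 was larger for longer transcripts (Spearman's rho = 0.63 across genes, a description), from a median of -0.46 for transcripts of up to 1 kb to 1.34 for those over 8 kb, and at Zt +16 it was smaller for them (rho = -0.38), from 0.59 to 0.18. Among the 28 members rho was 0.47 and -0.32. The 531 tested genes with transcripts in the range of the pore-forming genes had a median of 1.29 at Zt +6 and 0.20 at Zt +16, against 1.32 and 0.15 for the pore-forming genes themselves, and 494 of the 531 were called higher at Zt +6. For the length range of the auxiliary genes (9476 genes) the medians were 0.55 and 0.36, against 1.22 and 0.37. That range takes in most tested genes, with a median length of 3052 bases against 3825, so it is not a match by length. The part of transcript length in the values was not tested further.

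With the running median over length subtracted, the median at Zt +6 was 0.10 for the pore-forming genes and 0.36 for the auxiliary genes, with 5 members above and 1 below the 1.5-fold limits. Above them were *Cacng8* (1.73), *Cacna2d3* (0.95), *Cacng7* (0.90), *Cacng2* (0.74) and *Cacna1b* (0.59), and below them *Cacng5* (-0.61). The share of all tested genes outside the limits after this subtraction was not computed. This count and the later ones after the subtraction therefore have no background. The annotated *Cacng8* transcript is only 663 bases long, so its adjusted value rests on the shortest transcript of the list. Restricted to the 7 auxiliary genes with transcripts of 4 kb or longer, the unadjusted median at Zt +6 was 1.26, with 7 of 7 called higher, and their length-adjusted median was 0.31. Of all tested genes, 74.9% were called higher among those with transcripts of 4 to 6 kb, 89.1% at 6 to 8 kb and 94.5% over 8 kb.

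**Figure D3:**
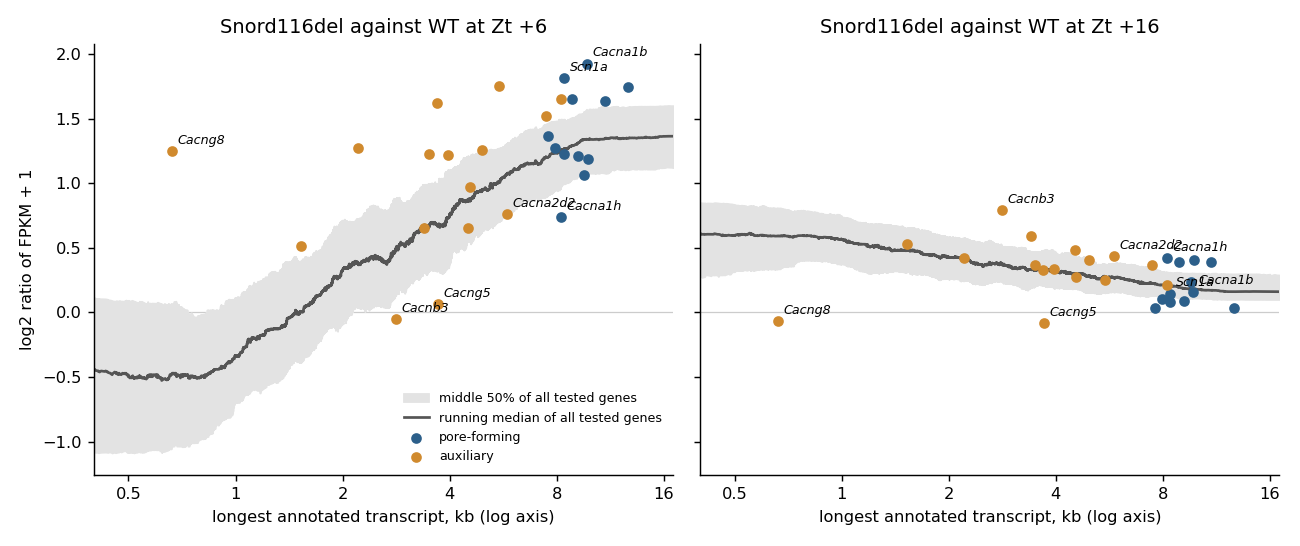
Log2 ratio of FPKM + 1 between genotypes against the longest annotated transcript (kb, log axis) at Zt +6 (left) and Zt +16 (right). Points are the 28 tested members, the dark line the running median of all tested genes in order of length, and the grey band the range of their middle quartiles. The pore-forming genes sit at the right end near the line in both panels, where it is high at Zt +6 and low at Zt +16, and Cacng8 and Cacng5 lie on opposite sides of it at Zt +6.

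Between the times of day, more members were called lower than higher at Zt +16 in both genotypes. In WT, 10 of 28 were called lower and 0 higher, against 10.3% lower and 5.71% higher over all tested genes. The 6 pore-forming genes among them were *Scn1a* (-1.36), *Cacna1e* (-1.32), *Cacna1b* (-1.01), *Scn2a1* (-0.97), *Scn8a* (-0.88) and *Cacna1c* (-0.62). The 4 auxiliary genes were *Cacng7* (-1.45), *Cacng8* (-1.21), *Cacng2* (-1.05) and *Cacna2d3* (-0.90). *Scn3a*, *Cacna1a*, *Cacna1h* and *Cacna1i*, by contrast, had changes of -0.05, -0.09, -0.16 and -0.19 in WT. Class medians were -0.56 (pore-forming) and -0.42 (auxiliary), beside -0.04 over all tested genes and -0.46 over the 531 genes of like length to the pore-forming ones, of which 34.1% were called lower. With the length trend subtracted the 10 members called lower became 6 and the pore-forming median -0.12, and with the groups scaled to the same total 17 were called lower. No share over all tested genes was computed for either setting. With the same total the median over all tested genes was -0.36.

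In *Snord116del* 22 of 28 were called lower at Zt +16 than at Zt +6 and 1 higher, against 39.1% lower and 25.0% higher over all tested genes. The gene called higher was *Cacnb3* (1.10), and of the pore-forming genes *Cacna1h* alone stayed inside the limits (-0.47). With the groups scaled to the same total, neither held: 0 members were called higher and 26 lower, all 12 pore-forming genes among them. The share of all tested genes called with this scaling was not computed, and the median over all tested genes was then -1.08. Without scaling, the lowest members on the log2 scale of FPKM + 1 were *Cacna1e* (-3.03) and *Scn1a* (-3.02). By the ratio of FPKM itself *Scn1a* (0.0375 times its value at Zt +6) and *Cacng8* (0.0535 times) were the lowest of the tested members. Class medians were -1.78 (pore-forming) and -1.19 (auxiliary), beside -0.24 over all tested genes and -1.56 over the 531 genes as long as the pore-forming ones. Of those 531 genes 89.6% were called lower, beside 11 of the 12 pore-forming genes. With the length trend subtracted 5 members were above and 10 below the limits, again without a share over all tested genes. The WT and *Snord116del* comparisons each use their own groups at both times, but the genotype and time comparisons share groups and are not independent of one another.

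The share of each paralogue within its class does not depend on the overall scale of a group. *Scn1a* made up 9.36% and 12.8% of the summed FPKM of the 9 sodium α genes described in WT and *Snord116del* at Zt +6, and 2.23% and 2.496% at Zt +16. *Scn3a* made up 4.48% and 4.12% at Zt +6 and 8.71% and 8.68% at Zt +16, so that *Scn3a* had 0.479 times the FPKM of *Scn1a* in WT at Zt +6 and 3.90 times at Zt +16. *Scn8a* and *Scn2a1* together kept their place, each within 38.7% to 45.0% in all groups. The transcripts of these 4 genes are of like length, from 8386 to 10944 bases. *Scn3a*, *Scn2a1*, *Scn1a*, *Scn9a* and *Scn7a* lie on the same stretch of chromosome 2 (mm9 chr2:65295175-66622971).

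Among the calcium α genes, *Cacna1e* made up 29.1% and 32.3% of the class at Zt +6 and 15.4% and 13.4% at Zt +16, and *Cacna1a* 27.2% and 21.6% against 43.3% and 39.4%. *Cacnb3* made up 83.7%, 65.3%, 85.7% and 87.6% of the β class in the 4 groups, lowest in *Snord116del* at Zt +6, where *Cacnb4* reached 16.3% against 5.26% in WT. These transcripts differ in length (2819 bases for *Cacnb3*, 8225 for *Cacnb4*, 12696 for *Cacna1e* and 7926 for *Cacna1a*). The part of length in these shares was not tested. *Cacng3* made up 74.8% and 59.3% of the γ class at Zt +6 and 89.4% and 90.6% at Zt +16. The ratio of *Cacng3* to *Cacng2* was 19.3 and 5.96 at Zt +6 and 103 and 87.1 at Zt +16. Here the leading γ transcript is much the shorter (1523 bases for *Cacng3*, 5510 for *Cacng2*), and the part of length in this ratio was not tested. *Cacng7* and *Cacng8*, which had the lowest log2 changes of FPKM + 1 among the γ genes in WT from Zt +6 to Zt +16 (by the ratio of FPKM, *Cacng8* and *Cacng2* had), are neighbours on chromosome 7 (mm9 chr7:3333055-3367810 and chr7:3394567-3415366).

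**Figure D4:**
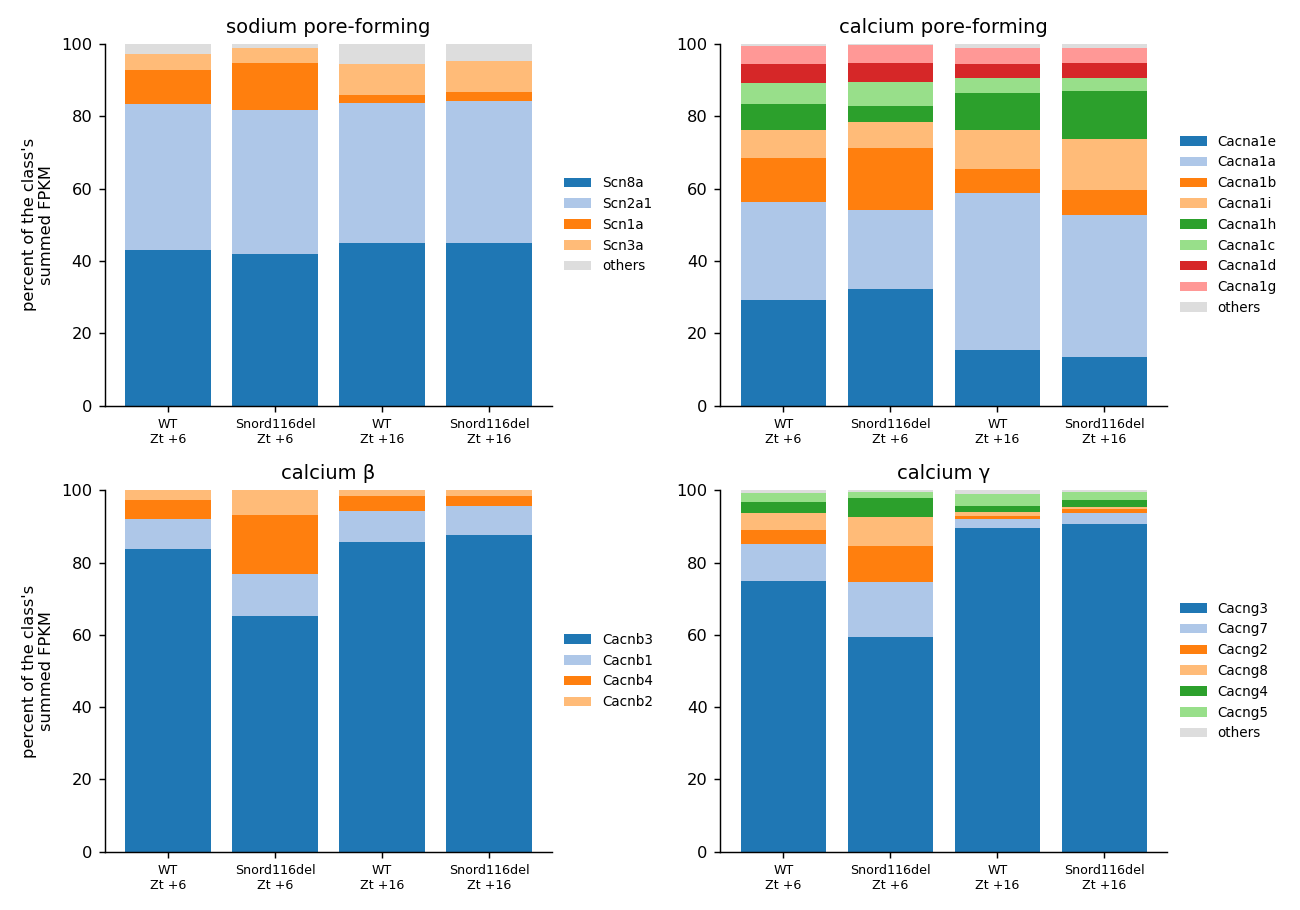
Share of each gene in the summed FPKM of its class (percent, stacked to 100) in the 4 groups for the sodium α, calcium α, calcium β and calcium γ genes. Genes under 2.5% in every group are pooled as others. Scn1a (dark orange, upper left) narrows from 9.36% and 12.8% at Zt +6 to 2.23% and 2.496% at Zt +16, and Cacng3 (dark blue, lower right) is smallest in Snord116del at Zt +6.

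Of 26 partner genes of these channels (Fgf and ankyrin anchoring proteins, adhesion molecules of the initial segment, the sodium leak channel complex, calmodulins, Rim proteins and small GTPases that bind calcium channel β subunits), 25 were in the table and 21 were tested. At Zt +6, 16 were called higher and 1 lower in *Snord116del*, against 49.3% and 7.62% of all tested genes, with a median of 1.24 that became 0.33 with the length trend subtracted. At Zt +16, 2 were called higher and none lower, against 19.0% and 0.204%, with a median of 0.36, or 0.09 with the length trend subtracted. The highest at Zt +6 were *Ank2*, an ankyrin (1.85), and *Unc80*, of the leak channel complex (1.82), and the lowest *Cabp1*, a calcium sensor of calcium channels (-0.85), and *Rem2*, a GTPase that binds β subunits (-0.03). At Zt +16 the highest were *Cabp1* (1.10) and *Calm3*, a calmodulin gene (0.81), and the lowest *Rimbp2*, a presynaptic scaffold (-0.01), and *Tpcn1*, an endolysosomal channel (0.12). *Cabp1* had 63.2 FPKM in WT and 34.5 FPKM in *Snord116del* at Zt +6, and 71.4 and 154 FPKM at Zt +16, and was thus lowest in *Snord116del* at Zt +6, as *Cacnb3* was.

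Cell type markers moved beside these values, and their part in the results was not tested. Their calls stand beside 49.3% higher and 7.62% lower of all tested genes at Zt +6, and 19.0% and 0.204% at Zt +16. With the length trend subtracted the list medians at Zt +6 ran from -0.27 (oligodendrocytes) to 0.57 (astrocytes). Of 6 inhibitory neuron markers, *Slc32a1*, *Pvalb* and *Sst* were called lower and *Gad1* and *Gad2* higher in *Snord116del* at Zt +6, and the summed FPKM of the list was 412 and 292 at Zt +6 and 791 and 1433 at Zt +16 (WT, then *Snord116del*), again lowest in *Snord116del* at Zt +6. Most of these sums came from *Sst* (291, 193, 571 and 1055 FPKM), whereas *Gad1* and *Gad2* had their highest values in *Snord116del* at Zt +6. Of 4 excitatory markers 3 were called higher at Zt +6 (sums 353, 849, 217 and 336 FPKM), and of 5 neuronal markers measured 2 (sums 621, 857, 545 and 728). Astrocyte markers were called higher in 5 of 5 (sums 33.3, 98.5, 14.8 and 19.1), oligodendrocyte markers in 2 of 5 (429, 661, 704 and 1018), microglia markers in 2 of 3 tested (15.4, 27.8, 14.4 and 22.8) and endothelial markers in 3 of 3 tested (4.23, 13.5, 1.83 and 2.17). Markers of striatum (19.4, 38.8, 20.9 and 39.3) were called higher in 4 of 4 tested and those of cerebellum (5.85, 13.5, 6.58 and 10.6) in 2 of 2. Those of skeletal muscle summed to between 2.32 and 5.75 FPKM, nearly all from *Acta1*, and those of retina and pineal to between 0.311 and 0.547 FPKM. At Zt +16 the calls in *Snord116del* were 1 of 5 neuronal, 1 of 4 excitatory, 2 of 6 inhibitory, 0 of 5 astrocyte, 3 of 5 oligodendrocyte, 2 of 3 microglia, 0 of 3 endothelial, 3 of 4 striatal and 1 of 2 cerebellar markers, all higher.

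In the ChIRP-seq lists, 10 of the 38 members had a replicated WT *116HG* peak, that is a replicate 1 peak within 10 kb of a replicate 2 peak and inside the gene or within 2 kb of it, against 10.9% of the 21853 genes with a position. They were *Scn8a* with 9 such peaks, *Cacng7* with 6, *Cacng8* with 4, *Cacna1a* with 3, *Cacna2d1*, *Cacnb4* and *Cacng3* with 2 each, and *Cacna1b*, *Cacna2d3* and *Cacnb2* with 1 each. All 10 were among the 28 tested members, and of all tested genes 18% had such a peak. Gene length stands beside this count: the loci of the tested members had a median length of 111 kb against 23.2 kb for all tested genes, and of the tested genes of 100 kb or longer 31.7% had a replicated peak, beside 6 of the 15 tested members of that length. Only 2 members kept a peak when direct overlap was asked in place of 10 kb, *Cacna2d3* and *Scn8a*. At *Scn8a*, 2 replicate 2 peaks (mm9 chr15:100872114-100872254 and chr15:100875792-100875897) lay inside wide replicate 1 peaks at the 3′ end of the gene.

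Replicate 1 alone had a peak at 32 of 38 members, against 59.3% of all genes, with 463 peaks in all. Among tested genes these were 27 of 28 members and 93.6% of all genes. Of the 446 at tested members, 82.3% had their centre in an exon of the gene, although exons make up 4.01% of these loci, and over all tested genes the share was 77.7%. *Scn1a* had 31 peaks, 30 of them exonic and none replicated, *Scn2a1* 30, *Scn8a* 29 and *Cacna1e* 56, the most of any member. The number of replicate 1 peaks went with the mean FPKM of a member (Spearman's rho = 0.72 over the 38 genes, and 0.53 with locus length, both descriptions). Replicate 2 had 17 peaks at 13 members, beside 13.8% of all genes, and it had peaks at 12 of the 28 tested members, beside 17.5% of tested genes and 48.2% of those of 100 kb or longer. Of the 17 peaks, 2 were exonic, and 10 of the 17 (58.8%) held a tandem repeat (a unit of up to 4 bases over at least 20 bases), against 33 of 463 (7.13%) in replicate 1. Over all peaks on the reference these shares were 42.1% and 12.8%, a difference between the replicates in the same direction as at the members.

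The control lists had fewer peaks at the members than either WT *116HG* list. They were also shorter, with 3648 (WT NSC), 1280 (*Snord116del* with *116HG* oligos) and 3418 peaks (*Snord116del* NSC) against 78033 and 11145. WT NSC had 2, both at *Cacna2d1*, which also had 3 in *Snord116del* NSC. Of these WT NSC peaks 1 (mm9 chr5:15795615-15795762) lay between the 2 replicated *116HG* peaks of *Cacna2d1* (chr5:15790089-15790248 and chr5:15805748-15805919). *Snord116del* with *116HG* oligos had 9 at 6 of the 38 members and *Snord116del* NSC had 11 at 8. Of all genes, 2.30%, 2.26% and 7.87% had a peak in these lists, in that order. Both *Snord116del* lists thus reached a larger share of the members than of all genes. Of tested genes of 100 kb or longer, 8.58%, 8.51% and 18.5% had one. Whether peaks were specific to the *116HG* oligos was not tested. The members with a replicated peak and those without one had overlapping changes: at Zt +6 the medians were 1.397 over 10 genes (range 0.51 to 1.93) and 1.198 over 18 genes (range -0.05 to 1.81), and at Zt +16 0.33 and 0.32.

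**Figure D5:**
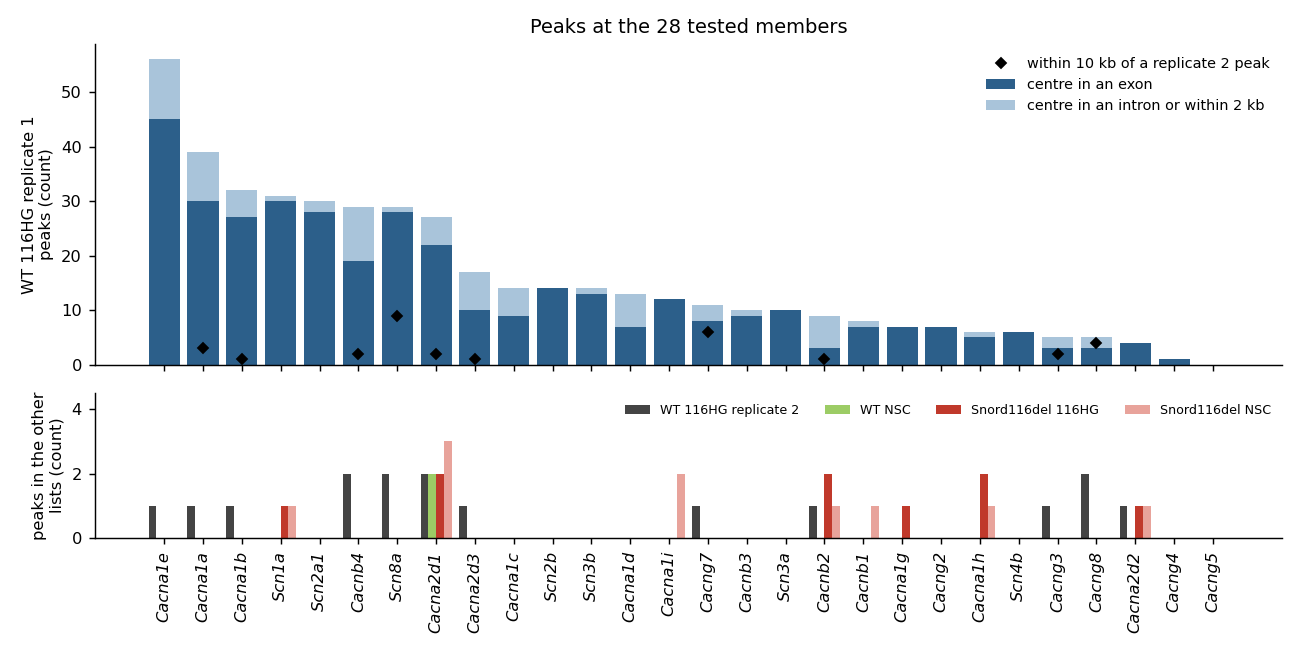
Number of ChIRP-seq peaks at each of the 28 tested members, from most to fewest in WT 116HG replicate 1. The upper panel splits replicate 1 peaks by whether the centre lies in an exon and marks with diamonds those within 10 kb of a replicate 2 peak, and the lower panel counts the peaks of the other 4 lists. Replicate 1 reaches 56 peaks at Cacna1e, while no other list has more than 3 at any member. The lists differ in size over the whole genome, with 78033 peaks in replicate 1 and 11145, 3648, 1280 and 3418 in the others (legend order).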

How the data were processed

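The material was 1 RNA-seq table of mouse cortex and 5 ChIRP-seq peak lists of brain. The authors aligned RNA-seq reads to mm9 with TopHat2 2.0.5 and deposited Cuffdiff 2.0.2 FPKM values, 1 per group and gene, with their own fold changes and q-values, which were not used. They aligned ChIRP-seq reads with Bowtie2 2.0.0 and called peaks per library with MACS 1.4.2, filtered on the false discovery rate and on fold over input. This deposited ratio served here only to select the upper quartile in an alternative. The list of WT *116HG* replicate 2 holds positions only. Versions are those in the submitters' processing notes. The study's methods give the reads of each mouse, but the table has no counts and no values per mouse, so no counting interval was computed.

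A gene was tested with a mean of at least 1 FPKM over the 4 groups. It was called where FPKM + 1 (pseudocount 1) differed at least 1.5-fold and 1 group or both reached 1 FPKM. The planned test for values per mouse (limma) did not apply. The rule on symbols finds 40 genes, of which 2 are not reported here and enter no count or sum of channel genes. The channel genes, partner genes and marker lists were chosen with earlier results of these data known. Each tested member is named with its 4 values, the others by name and range. Of the partners, the 2 highest and 2 lowest changes at each time are named. Marker lists covered neurons, excitatory and inhibitory neurons, astrocytes, oligodendrocytes, microglia, endothelium, striatum, cerebellum, skeletal muscle, and retina and pineal.

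Genes were matched by symbol to GENCODE vM1 on NCBIM37, the assembly of mm9 (21853 of 23235 genes). Length is that of the longest annotated transcript. The length trend is a running median over 501 genes. A peak was assigned to a gene within 2 kb and called exonic by its centre. Of the tested members, 5 overlap another gene of the table on the opposite strand and 1 (*Cacnb2*) on the same strand, and whether the counting used strand is not given in the sources used here. Shares are of peaks on sequences in the reference. Python 3.11.15, numpy 2.4.6, pandas 2.3.3, scipy 1.17.1 and matplotlib 3.10.9 were used, and the fold rule, length trend and peak distances were tested on simulated data.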

Additional observations from a re-analysis of the deposited data

Results flagged for a closer look

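For 3 tested members the difference between genotypes had opposite signs at Zt +6 and Zt +16. With 1 value per group these differences between the times were not tested, and each is given as the log2 change at Zt +6 minus that at Zt +16. *Cacnb3* had -0.05 and 0.79, a difference of -0.84. *Cacng8* had 1.25 and -0.06, a difference of 1.31, and its values at Zt +16 were both under 0.5 FPKM. *Cacng5* had 0.07 and -0.08, a difference of 0.15 between values that all lay between 1.17 and 1.41 FPKM. In 26 of the 28 members the change at Zt +6 was above that at Zt +16. The share of all tested genes for which this held was not computed. The median change over all tested genes was 0.57 at Zt +6 and 0.35 at Zt +16. Over the 531 tested genes with transcripts as long as the pore-forming ones it was 1.29 and 0.20. Groups of 4 or more samples with a value each were not at hand, so no sample was compared with its group.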

How the results depend on the processing

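No paired analysis was possible because the RNA-seq table has 1 value per group, so replicate numbers have no values of their own, and single mice could not be left out. A median counts as moved here where it shifted by at least 0.58 (1.5-fold), and a count where it changed by over 1.5 times. Of 92 alternatives over 13 results, 60 left the value in place.

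The share of all tested genes called was not computed for the alternative settings, so the changed counts of called members given here have no background. At Zt +6 the 25 members called became 10 where a mean of 5 FPKM was required (12 genes left), 16 with the groups scaled to the same median and 6 with the length trend subtracted. The medians of 1.32 (pore-forming) and 1.22 (auxiliary) became 0.69 and 0.55 with the same median and 0.10 and 0.36 with the length trend subtracted. At Zt +16 the 2 called became 8 with a pseudocount of 0.1 FPKM and 0 with the same median, the same total, the length trend subtracted or a 2-fold limit. The pore-forming median of 0.15 reversed to -0.045 with the same median, -0.15 with the same total and -0.041 with the length trend subtracted, and the auxiliary median of 0.37 reversed to -0.052 with the same total. Between times in WT, the 10 called became 4 with a mean of at least 5 FPKM, 17 with the same total, and 6 with either the length trend subtracted or a 2-fold limit. In *Snord116del* the 23 called became 10 with a mean of at least 5 FPKM and 15 with the length trend subtracted. The pore-forming median of -1.78 became -2.39 with a pseudocount of 0.1 FPKM, -0.97 with no minimum and -0.24 with the length trend subtracted, and the auxiliary median of -1.19 became -1.99 with the same total and -0.39 with the length trend subtracted. The auxiliary medians without the 2 most abundant genes (*Cacnb3* and *Cacng3*), and over transcripts of 4 kb or longer, both chosen after seeing the data, did not move.

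The 10 members with a replicated peak became 2 (peaks within 0 kb), 4 (2 kb or the upper quartile of fold over input) and 16 (50 kb), against 3.32%, 5.41%, 5.39% and 27.1% of all genes. Counting all peaks of 1 replicate gave 13 (replicate 1 left out) to 32 (replicate 2 left out), against 13.8% and 59.3% of all genes. Causes other than fewer genes tested were not tested.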
